A study of Homo sapiens with 16 samples.

Results

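The synaptic vesicle release machinery was followed as 57 genes, chosen by symbol for their known place in the vesicle cycle, out of 27037 gene symbols in the count table. The choice was made with earlier results of these data known. They comprised 9 vesicle membrane and coat proteins, 9 SNAREs and SNARE regulators, 11 synaptotagmins and DOC2 proteins, 5 genes for RAB3 GTPases and rabphilin, 16 active zone and priming proteins, 5 vesicle endocytosis proteins and 2 synucleins. All 57 symbols were in the table, and 49 passed the filter on low counts and were tested.

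Polyadenylated RNA was sequenced from SK-N-BE(2)C, an established human neuroblastoma cell line that carries MYCN amplification. Cells were given the vehicle DMSO, 10 µM retinoic acid (RA), 1 µM palbociclib (PB), which blocks the kinases CDK4 and CDK6 and so the entry into S phase, or PB together with RA (PB+RA), and the study's methods give 5 days of treatment. Each group held 4 replicates, 16 samples in all. Every group was of the same single line, so the values describe that line only.

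A neurotransmitter-filled vesicle is loaded, docked at the active zone of the presynaptic membrane, primed, and fused when calcium enters. Fusion is driven by the SNARE proteins on vesicle and plasma membrane, calcium is sensed by synaptotagmins, and the vesicle membrane is afterwards retrieved by endocytosis. Sympathetic neurons and chromaffin cells, the lineage from which neuroblastoma arises, use much of the same machinery to release noradrenaline and other catecholamines.

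Libraries held 19.5 to 31.6 M counts, so a gene with no read in a library could still have lain at up to 0.0949 CPM (a gene's counts per 1 M counts of its library) in the deepest and 0.154 CPM in the shallowest. In every group libraries 1 and 2 resembled each other, and libraries 3 and 4 each other, more than libraries from different pairs did. The chi-square per degree of freedom was 3.11 to 9.66 within these pairs and 12.5 to 31.1 across them. The labels name no batch. The defining adrenergic markers were present in every library, with a summed level of 2330 to 3698 CPM over 8 genes, and SOX10, a defining Schwann cell gene, was under 1 CPM in every library. Beside the members, 4 proliferation markers summed to 1310 to 1429 CPM in DMSO, 1071 to 1149 in RA, 458 to 604 in PB and 156 to 285 in PB+RA. The 7 mesenchymal markers in the table summed to 142 to 262, 589 to 976, 123 to 235 and 420 to 761 CPM, of which most was FN1, and 4 retinoid response genes to 8.40 to 14.5, 199 to 319, 13.2 to 17.2 and 294 to 506. Exons of 19 members overlap a gene on the opposite strand, and the strand column used for counting is not given in the sources used here. The marker sums moved with PB and RA, and their part in the results below was not tested. In bulk RNA, fewer cells expressing a gene and less RNA per cell cannot be told apart.

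PB raised most of the tested members, RA raised a smaller number, and the combination gave nearly the count of PB alone with a few more falls. A gene was called at an adjusted p below 0.05 in edgeR's quasi-likelihood test if its log2 fold change also exceeded 0.5 in either direction, and log2 fold changes are given ± SE. In PB against DMSO, 31 members were higher (63.3% of the 49 tested) and 2 lower (4.08%), where 16.9% and 11.3% of all tested genes were called in these directions. Of 49 tested release-cycle genes outside the list, 26.5% were higher with PB. In RA against DMSO, 11 were higher (22.4%) and 2 lower, beside 10.8% and 2.54% of all genes. In PB+RA against DMSO, 34 were higher (69.4%) and 5 lower (10.2%), beside 24.0% and 17.9%. The median log2 fold change of the 49 tested members was 0.74, 0.18 and 0.81 in these comparisons, against 0.03, 0.01 and 0.04 for all 15415 tested genes. The 3 comparisons share the DMSO libraries.

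Members differed more often between the combination and RA than between the combination and PB, in comparisons that share the PB+RA libraries. In PB+RA against RA, 27 members were higher and 2 lower, with 14.9% and 14.1% of all genes called and a median of 0.66. In PB+RA against PB, 3 were higher and 6 lower, with 9.02% and 7.27% called and a median of 0.01. With the replicate number as a block in the fit, these last counts became 5 and 7 (all genes 10.7% and 8.30%), and the 2 members lower in PB+RA against RA became 4 (all genes 15.2%). Of the 49 tested members, 20 were called higher with PB and with PB+RA but not called with RA, a pattern of 9.51% of all genes, and 8 were called higher in all 3 treatments, a pattern of 4.50%. The tested members called in none of the 5 comparisons without the block were SV2C, SYT9, ERC1 and PPFIA4. The share of all genes called in none was not counted. Using the libraries of replicates 1 and 2 alone, 31 members were higher and 1 lower in PB against DMSO, and replicates 3 and 4 alone gave 30 and 1. For these replicate sets the share of all genes was not counted either.

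**Figure D1:**
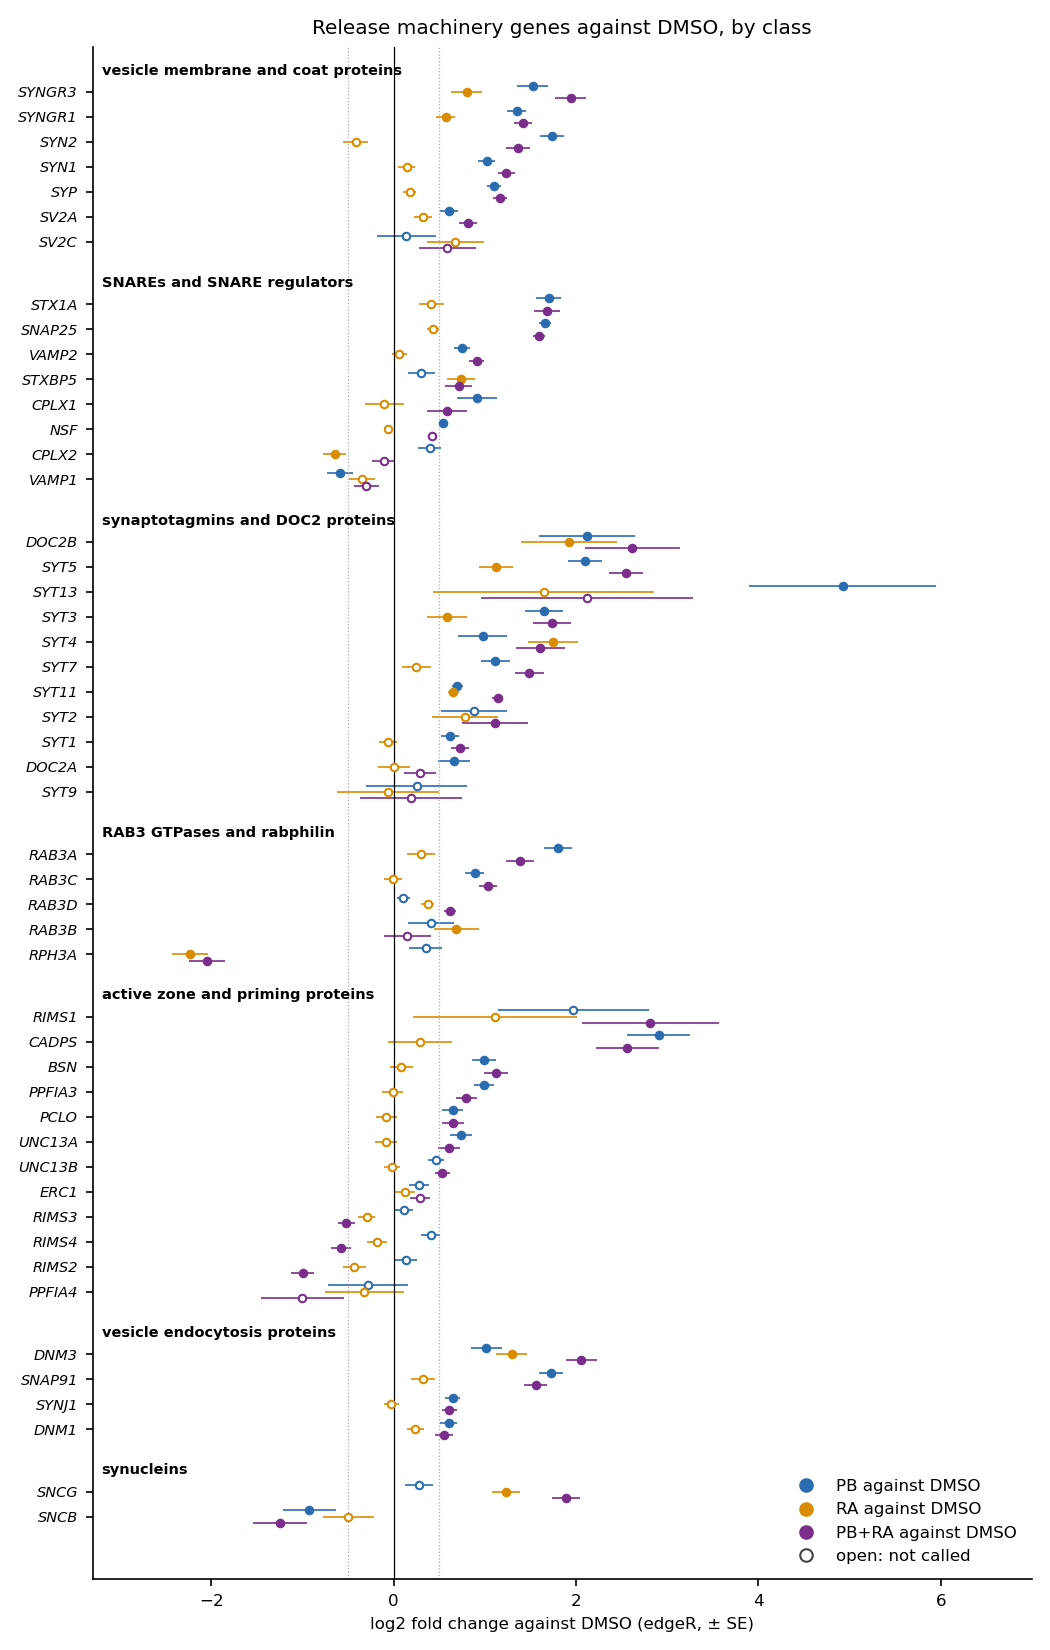
Log2 fold change against DMSO of the 49 tested members, grouped by class and ordered within a class by PB+RA, for PB (blue), RA (orange) and PB+RA (purple). Bars are ± SE from edgeR, filled points were called and dotted lines mark a log2 of 0.5 in each direction. PB and PB+RA points lie together to the right for most genes, while RPH3A and CPLX2 have called RA points to the left of 0, and RPH3A, RIMS2, RIMS3, RIMS4 and SNCB called PB+RA points there.

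Summed over all 57 members, the level was 3236 to 3415 CPM in the 4 DMSO libraries, 3334 to 3702 in RA, 5297 to 5768 in PB and 5237 to 5974 in PB+RA. The PB and PB+RA libraries all lay above those of DMSO and RA, and overlapped each other. By class, vesicle membrane and coat genes summed to 442 ± 16.9 CPM under DMSO (SD, n = 4), 527 ± 44.2 under RA, 952 ± 45.7 under PB and 1012 ± 102 under PB+RA. Synaptotagmins and DOC2 genes stood at 797 ± 31.1, 1102 ± 66.3, 1323 ± 98.8 and 1640 ± 168 CPM in the same order. For SNAREs and their regulators the sums were 1194 ± 86.1, 1010 ± 86.5, 1843 ± 184 and 1546 ± 217 CPM, and CPLX2 alone made up 50.7% of them. Active zone and priming genes summed to 559 ± 18.4, 517 ± 36.9, 836 ± 50.8 and 701 ± 39.8 CPM, so that every PB+RA library lay below every PB library. A few abundant genes dominate these sums, which carry no test.

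**Figure D2:**
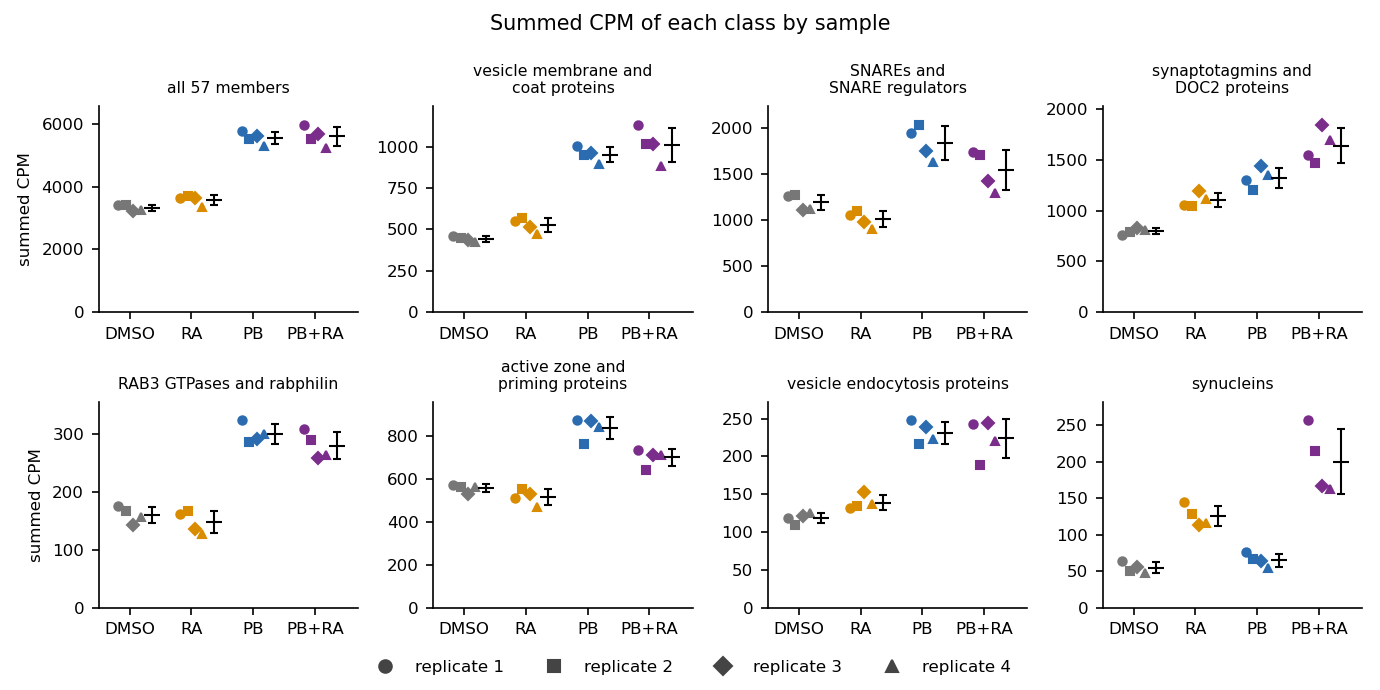
Summed CPM of all 57 members and of each class, by sample. Symbols are the 4 replicates of each group, and the horizontal mark and bar are the mean ± SD. For all members the PB and PB+RA libraries (5237 to 5974 CPM) sit above the DMSO and RA libraries (3236 to 3702 CPM), whereas the synuclein sum, almost all SNCG, is highest in the RA-treated groups.

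Among the vesicle membrane and coat proteins, 6 of 7 tested genes were higher with PB and the same number with PB+RA, and 2 with RA. SYP (synaptophysin, chrX:49044268-49056677 in GRCh37), an abundant membrane protein of small synaptic vesicles, had the highest level of the class per kb of exon (42.2 CPM per kb over all samples). It read 180.1, 185, 181 and 170.5 CPM under DMSO and 216, 225, 195 and 178 under RA, and 388, 376, 398 and 373 CPM under PB and 445, 414, 424 and 357 under PB+RA. No PB or PB+RA library overlapped a DMSO or RA library. The log2 fold change was 1.10 ± 0.08 (adjusted p = 7.75e-09) with PB and 1.17 ± 0.08 (adjusted p = 8.13e-10) with PB+RA, while with RA it was 0.18 ± 0.07 (adjusted p = 0.0778) and not called.

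SYN2, a synapsin that tethers vesicles to the reserve pool, read 45.4, 31.3, 40.9 and 44.05 CPM under DMSO, 34.1, 23.05, 33.1 and 31.5 under RA, 157, 131, 129 and 121 under PB and 119.7, 96.5, 110.1 and 96.5 under PB+RA. PB raised it by a log2 of 1.74 ± 0.13 (adjusted p = 2.97e-08). Its RA libraries ran low (log2 -0.42 ± 0.13, adjusted p = 0.0224, below the size for a call), so that PB+RA stood 3.43 times above RA, the second largest rise of any member with at least 5 CPM in that comparison. SYN2 was called lower with RA under GC and length correction, at -0.57 (adjusted p = 0.00201), and without DMSO replicate 2, at -0.53 (adjusted p = 0.00469). SYN1, its paralogue, rose by 1.02 ± 0.09 with PB and 1.24 ± 0.09 with PB+RA on the log2 scale and lay at 39.4 CPM under DMSO, with 0.214% of its exon length shared with ARAF on the opposite strand. SYN3 had at most 6 counts in any library and was not tested.

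The synaptogyrins, 4-pass vesicle membrane proteins, were the members of this class called with RA as well. SYNGR3 read 5.74, 4.97, 6.04 and 5.303 CPM under DMSO, 10.03, 9.22, 10.7 and 8.78 under RA, 17.6, 9.92, 19.7 and 16.4 under PB and 24.8, 18.2, 23.4 and 20.1 under PB+RA. All RA, PB and PB+RA libraries were above all DMSO libraries, and the log2 fold changes were 0.80 ± 0.17 (adjusted p = 0.00174) for RA, 1.53 ± 0.17 (adjusted p = 1.27e-06) for PB and 1.94 ± 0.17 (adjusted p = 3.3e-08) for the combination. SYNGR1 read 73.6, 74.8, 61.8 and 59.5 CPM under DMSO, 103, 113, 99.9 and 87.9 under RA, 185, 187, 161 and 154 under PB and 208, 186, 179.9 and 159.5 under PB+RA. It rose by 1.35 ± 0.10 with PB and 0.57 ± 0.10 with RA, and PB+RA stood at 1.42 ± 0.10, with a difference from PB of 0.07 ± 0.10 and a 95% interval of -0.13 to 0.26. With GC and length correction its RA value was 0.41, no longer called. SV2A, a vesicle glycoprotein and target of the drug levetiracetam, rose by 0.60 ± 0.10 with PB and 0.81 ± 0.10 with PB+RA. SV2C lay at 1.59 ± 0.722 CPM under DMSO and 2.54 ± 0.827 under RA, a difference not called without the replicate block and called with it, at 0.69 (adjusted p = 0.00104) for RA and 0.62 (adjusted p = 0.00158) for PB+RA. These were also called in replicates 3 and 4 only and without DMSO replicate 2 (log2 0.96, adjusted p = 0.0308 and 0.86, adjusted p = 0.0274). SV2B had no more than 3 counts in a library.

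The SNARE core showed 3 rises with PB and 1 fall. SNAP25, the plasma membrane SNARE that supplies a pair of helices to the complex, read 35.2, 37.4, 36.7 and 36.7 CPM under DMSO, 44.97, 54.3, 51.4 and 46.9 under RA, 122, 124, 110.1 and 105 under PB and 113, 117, 114 and 104 under PB+RA. PB raised it 3.16-fold (log2 1.66 ± 0.07, adjusted p = 4.74e-11), and the PB+RA libraries overlapped those of PB. With RA all libraries lay above DMSO at a log2 of 0.43 ± 0.07 (adjusted p = 0.000134), below the size for a call. STX1A, the plasma membrane syntaxin, read 46.7, 49.1, 49.1 and 44.4 CPM under DMSO, 59.5, 78.9, 59.3 and 56.3 under RA, 160.3, 185, 141 and 129 under PB and 170.1, 185, 142 and 122 under PB+RA. Its log2 fold change was 1.70 ± 0.14 (adjusted p = 8.39e-08) with PB and 1.68 ± 0.14 (adjusted p = 3.43e-08) with PB+RA, and RA alone, also without overlap, gave 0.41 ± 0.14 (adjusted p = 0.0300), below the size for a call.

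The vesicle SNAREs moved apart. VAMP2 (synaptobrevin 2, chr17:8062467-8066864) lay at 28.3 ± 1.46 CPM under DMSO, 29.7 ± 1.25 under RA, 47.5 ± 3.45 under PB and 54.1 ± 7.14 under PB+RA, and rose by 0.75 ± 0.08 with PB. Its paralogue VAMP1 (chr12:6571403-6579843) read 10.5, 7.704, 8.06 and 9.29 CPM under DMSO, 7.74, 6.02, 6.22 and 8.15 under RA, 5.32, 5.27, 6.27 and 6.699 under PB and 7.43, 6.42, 8.81 and 6.71 under PB+RA. Every PB library of VAMP1 was below every DMSO library, and its log2 fold change with PB was -0.59 ± 0.14 (adjusted p = 0.00212), whereas PB+RA at -0.30 ± 0.14 was not called. VAMP1 shares 10.4% of its exon length with TAPBPL on the opposite strand, which is the more abundant (10.4 against 7.29 CPM), so reads of the pair may be mixed. Using only replicates 3 and 4, the fall was -0.46 (adjusted p = 0.0220), short of the size required for a call.

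Complexins clamp and then promote fusion of the assembled SNARE complex, and those 2 genes were the most abundant of the class per kb (108 CPM per kb for CPLX1 and 101 for CPLX2). CPLX2 read 779.8, 796, 659.8 and 669.9 CPM under DMSO and 506, 514, 453 and 396 under RA, and 1015, 1065, 909.7 and 833 CPM under PB and 794, 789, 625 and 535 under PB+RA. RA lowered it without overlap (log2 -0.65 ± 0.13, adjusted p = 0.00110). PB gave 0.40 ± 0.13 (adjusted p = 0.0145), also without overlap but below the size for a call, and PB+RA overlapped DMSO (-0.11 ± 0.13). PB+RA stood at -0.51 ± 0.13 (adjusted p = 0.00517) against PB and 0.53 ± 0.13 (adjusted p = 0.00205) against RA. Both of these calls sat at the size threshold. The first became -0.39 (adjusted p = 0.0175) when replicate 4 of the combination was left out, and the second 0.43 (adjusted p = 0.0126) when its replicate 1 was. The first was also lost on leaving out any of 7 other libraries, and the second RA replicate 4 or PB+RA replicate 2.

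CPLX1 read 222, 212, 162 and 164 CPM under DMSO, 207, 219, 154 and 133 under RA, 389.8, 424, 322 and 297 under PB and 389.7, 345, 224 and 204 under PB+RA. It rose with PB (log2 0.91 ± 0.22, adjusted p = 0.00248), where the groups did not overlap, and RA gave -0.10 ± 0.22. The rise in PB+RA, 0.59 ± 0.22 (adjusted p = 0.0272), was smaller in replicates 3 and 4 only, at 0.33 (adjusted p = 0.00110), and every PB+RA library lay above the DMSO library of its number. The block kept the call. Without the block the value was 0.38 (adjusted p = 0.140) without replicate 1, 0.47 (adjusted p = 0.101) without replicate 2, and also lost its call without DMSO replicate 3 or 4. With GC and length correction it was 0.45, and with the block as well 0.43, neither called.

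Of the remaining regulators, STXBP5 (tomosyn), which sequesters syntaxin and inhibits priming, was the 1 SNARE-class gene called higher with RA. It lay at 90.4 ± 15.9 CPM under DMSO, 152 ± 15.9 under RA, 112 ± 12.6 under PB and 151 ± 35.03 under PB+RA, with a log2 fold change of 0.74 ± 0.15 (adjusted p = 0.00163) for RA and 0.31 ± 0.15, not called, for PB. NSF, the ATPase that takes spent SNARE complexes apart, rose from 65.5 ± 2.93 to 95.1 ± 1.35 CPM with PB, a log2 of 0.54 ± 0.05 that became 0.49 (adjusted p = 1.02e-06) without DMSO replicate 2. It was 0.44 with GC and length correction and 0.47 in replicates 3 and 4 only, both below the size for a call. STXBP5L had at most 5 counts per library.

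**Figure D3:**
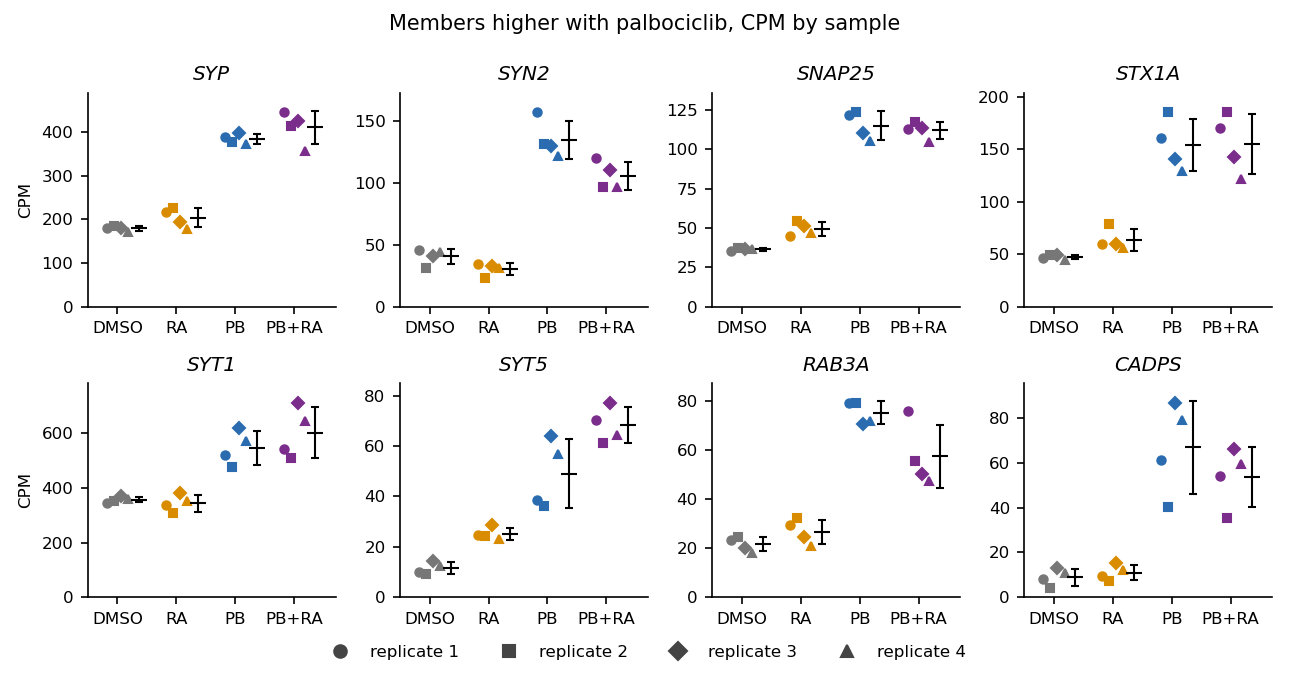
CPM by sample of 8 members called higher with PB and with PB+RA. Symbols are replicates, and the mark and bar are the mean ± SD of 4 libraries. For all 8 genes every PB and PB+RA library lies above every DMSO library, and SYT5 is the one of them whose RA libraries (23.1 to 28.7 CPM) also stand clear of DMSO by a called difference.

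Among synaptotagmins and DOC2 proteins, RA raised 5 of 11 tested genes, PB 9 of 11 and PB+RA 8 of 11. SYT5 (chr19:55682564-55691657), a calcium-binding synaptotagmin of dense-core and synaptic vesicles, read 10.04, 9.05, 14.5 and 12.2 CPM under DMSO, 24.6, 24.2, 28.7 and 23.1 under RA, 38.7, 36.3, 64.2 and 56.9 under PB and 70.4, 61.2, 77.3 and 64.5 under PB+RA. The groups did not overlap between DMSO and RA, RA and PB, or RA and PB+RA. The log2 fold change was 1.12 ± 0.18 (adjusted p = 0.000281) with RA, 2.10 ± 0.19 (adjusted p = 1.9e-07) with PB and 2.55 ± 0.19 (adjusted p = 8.37e-09) with PB+RA, the last a 5.84-fold rise.

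SYT4, a synaptotagmin of dense-core vesicles with incomplete calcium binding, read 30.4, 38.2, 57.9 and 54.2 CPM under DMSO, 118, 134, 185 and 175 under RA, 68.6, 69.6, 111 and 106 under PB and 93.2, 107, 179.7 and 184 under PB+RA. Every RA library lay above every PB library, with log2 fold changes of 1.75 ± 0.27 (adjusted p = 0.000221) for RA and 0.98 ± 0.27 (adjusted p = 0.00693) for PB, and PB+RA reached 1.61 ± 0.27. In all 4 groups its replicates 3 and 4 were above replicates 1 and 2. With the replicate block, PB+RA was called above PB, at 0.61 (adjusted p = 4.51e-08).

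SYT11, which does not sense calcium, had the highest level of the class per kb (86.5 CPM per kb). It read 276, 272, 287 and 276 CPM under DMSO, 451, 416, 462 and 431 under RA, 464, 404, 477 and 458 under PB and 615, 569.9, 694 and 621 under PB+RA. Both agents raised it (0.65 ± 0.06, adjusted p = 1.36e-06 for RA and 0.70 ± 0.06, adjusted p = 1.18e-07 for PB), and PB+RA stood above every RA and PB library at 1.14 ± 0.06 (adjusted p = 1.23e-10) against DMSO. Its differences from the single agents, 0.44 ± 0.06 and 0.49 ± 0.06, were under the size required for a call.

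SYT1, the fast calcium sensor of synchronous release, read 346, 354, 369.9 and 359.9 CPM under DMSO, 338, 307, 381 and 352 under RA, 520.2, 476, 621 and 571 under PB and 544, 509, 713 and 644 under PB+RA. It rose with PB by 0.62 ± 0.10 (adjusted p = 7.68e-05) and with PB+RA by 0.73 ± 0.10 (adjusted p = 8.39e-06), and RA libraries overlapped DMSO (-0.06 ± 0.10). SYT7, a slow high-affinity sensor, went from 18.2 ± 0.718 CPM under DMSO to 21.8 ± 3.196 under RA, 39.5 ± 4.66 under PB and 52.1 ± 14.8 under PB+RA, a log2 of 1.12 ± 0.16 with PB. SYT3 rose from 1.39 ± 0.241 CPM to 4.37 ± 0.242 with PB, and its small RA rise to 2.103 ± 0.277 (log2 0.58 ± 0.22, adjusted p = 0.0446) lost its call under 19 of 28 alternatives, among them leaving out any 1 RA or PB library. Without DMSO replicate 3, for example, it was 0.48 (adjusted p = 0.132).

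SYT2, a fast sensor, read 37.4, 63.7, 26.9 and 26.1 CPM under DMSO, 62.6, 101, 51.8 and 51.1 under RA, 86.8, 107, 46.3 and 43.95 under PB and 95.5, 116, 63.2 and 64.7 under PB+RA, and replicate 2 was the highest library in each group. PB+RA was called higher (1.11 ± 0.36, adjusted p = 0.0133), though not without PB+RA replicate 2 (0.90, adjusted p = 0.0555). PB and RA alone were not called without the replicate block and were called with it, at 0.88 (adjusted p = 5.6e-07) and 0.82 (adjusted p = 3.23e-06). Replicate sets and left-out libraries also moved these calls, PB being called under 9 alternatives and RA under 4. SYT2 shares 27.0% of its exon length with PPP1R12B on the opposite strand (65.3 against 49.3 CPM).

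DOC2B, a high-affinity C2-domain protein of spontaneous release, was low (range 0.443 to 1.42 CPM under DMSO, 1.62 to 5.09 under RA, 1.85 to 5.66 under PB and 3.19 to 10.02 under PB+RA) and was raised by RA (1.92 ± 0.53), PB (2.12 ± 0.53) and the combination (2.62 ± 0.52). With the block, PB+RA was also above PB, at 0.50 (adjusted p = 0.0152), and above RA, at 0.69 (adjusted p = 0.00108). DOC2A lay at 17.9 ± 2.204 CPM under DMSO and 28.4 ± 5.499 under PB (log2 0.66 ± 0.17, adjusted p = 0.00423). Its 4.4% overlap with the more abundant INO80E on the opposite strand is uncertain in the same way as for VAMP1.

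SYT13, which lacks calcium binding, read 0.284, 0.530, 0.0316 and 0 CPM under DMSO, 0.778, 1.21, 0.528 and 0.0450 under RA, 9.65, 12.9, 0.856 and 1.81 under PB and 1.27, 1.68, 0.404 and 0.256 under PB+RA. The PB level was carried by replicates 1 and 2, at 9.65 and 12.9 CPM against 0.856 and 1.81 in replicates 3 and 4, and the fitted log2 of 4.92 ± 1.03 (adjusted p = 0.000931) has a 95% interval of 2.91 to 6.94. PB+RA stood at -2.80 ± 0.85 (adjusted p = 0.0182) against PB, not called without PB replicate 2 (-2.19, adjusted p = 0.0695) or without PB+RA replicate 3 or 4. RA and PB+RA were called above DMSO with the block, at 1.67 (adjusted p = 0.0132) and 2.11 (adjusted p = 0.000897). SYT9 was called neither without nor with the block. It read 16.2, 15.1, 40.1 and 41.6 CPM under DMSO, 15.4, 11.9, 41.6 and 40.3 under RA, 21.1, 20.4, 47.3 and 45.8 under PB and 15.03, 13.5, 52.1 and 51.4 under PB+RA, so that replicates 3 and 4 lay above replicates 1 and 2 within every group. In replicates 1 and 2 only, PB+RA was called below PB, at -0.55, adjusted p = 0.00917.

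RAB3 GTPases sit on vesicles and recruit the docking machinery, and rabphilin binds them. RAB3A (chr19:18307594-18314852), the main neuronal isoform and the highest of the class per kb (25.3 CPM per kb), read 23.4, 24.5, 20.1 and 18.1 CPM under DMSO, 29.2, 32.02, 24.4 and 20.9 under RA, 79.2, 78.99, 70.7 and 71.8 under PB and 75.8, 55.5, 50.3 and 47.5 under PB+RA. PB raised it 3.496-fold (log2 1.81 ± 0.15, adjusted p = 1.06e-07) and PB+RA by 1.39 ± 0.15 (adjusted p = 7.81e-07), and 3 of the 4 PB+RA libraries lay below all PB libraries. RAB3A shares 9.24% of its exon length with MPV17L2 on the opposite strand (30.1 CPM). RAB3C, the most abundant of the class in CPM, rose from 87.8 ± 6.72 to 163 ± 15.2 CPM with PB and 183 ± 15.7 with PB+RA, with RA at 87.9 ± 14.8.

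RAB3D, an isoform best known from secretory granules, read 18.2, 18.2, 17.8 and 18.4 CPM under DMSO, 22.2, 23.05, 25.1 and 24.1 under RA, 20.6, 17.1, 20.1 and 20.4 under PB and 28.7, 27.6, 30.5 and 26.8 under PB+RA. The PB libraries overlapped DMSO (log2 0.11 ± 0.07) and the RA libraries were higher by 0.37 ± 0.07, below the size for a call. PB+RA was called against DMSO (0.62 ± 0.07, adjusted p = 5.28e-07) and against PB (0.51 ± 0.07, adjusted p = 2.41e-05), the latter becoming 0.45 (adjusted p = 6.89e-05) without PB replicate 2 and 0.47 (adjusted p = 0.000128) without PB+RA replicate 3. With GC and length correction they were 0.49 and 0.46, neither then called. In replicates 3 and 4 only, the difference from PB was 0.48, also below the size for a call. RAB3D shares 20.7% of its exon length with an unnamed gene, and 3.28% with CCDC159 (5.14 CPM), on the opposite strand. RAB3B was low, at 1.75 ± 0.367 CPM under DMSO and 2.86 ± 0.485 under RA (0.69 ± 0.25, adjusted p = 0.0419), and that call was lost under 12 of 28 alternatives, for instance without DMSO replicate 2 (0.57, adjusted p = 0.121). With the block it was lower in PB+RA than in RA, at -0.56 (adjusted p = 0.00616).

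RPH3A (rabphilin-3A, chr12:113008184-113336686), the RAB3 effector, fell where RA was given. It read 40.1, 28.5, 24.4 and 30.9 CPM under DMSO, 7.95, 6.11, 6.25 and 6.08 under RA, 35.9, 28.5, 44.6 and 48.8 under PB and 6.32, 6.16, 9.62 and 8.56 under PB+RA. All 8 libraries with RA lay at 6.08 to 9.62 CPM and all 8 without it at 24.4 to 48.8 CPM. The log2 fold change with RA was -2.24 ± 0.20 (adjusted p = 9.14e-07), PB+RA against DMSO gave -2.04 ± 0.20 (adjusted p = 1.58e-07) and PB+RA against PB -2.40 ± 0.20 (adjusted p = 2.61e-07). PB alone was at 0.35 ± 0.18 and not called, and PB+RA differed from RA by 0.19 ± 0.20 with a 95% interval of -0.21 to 0.59.

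**Figure D4:**
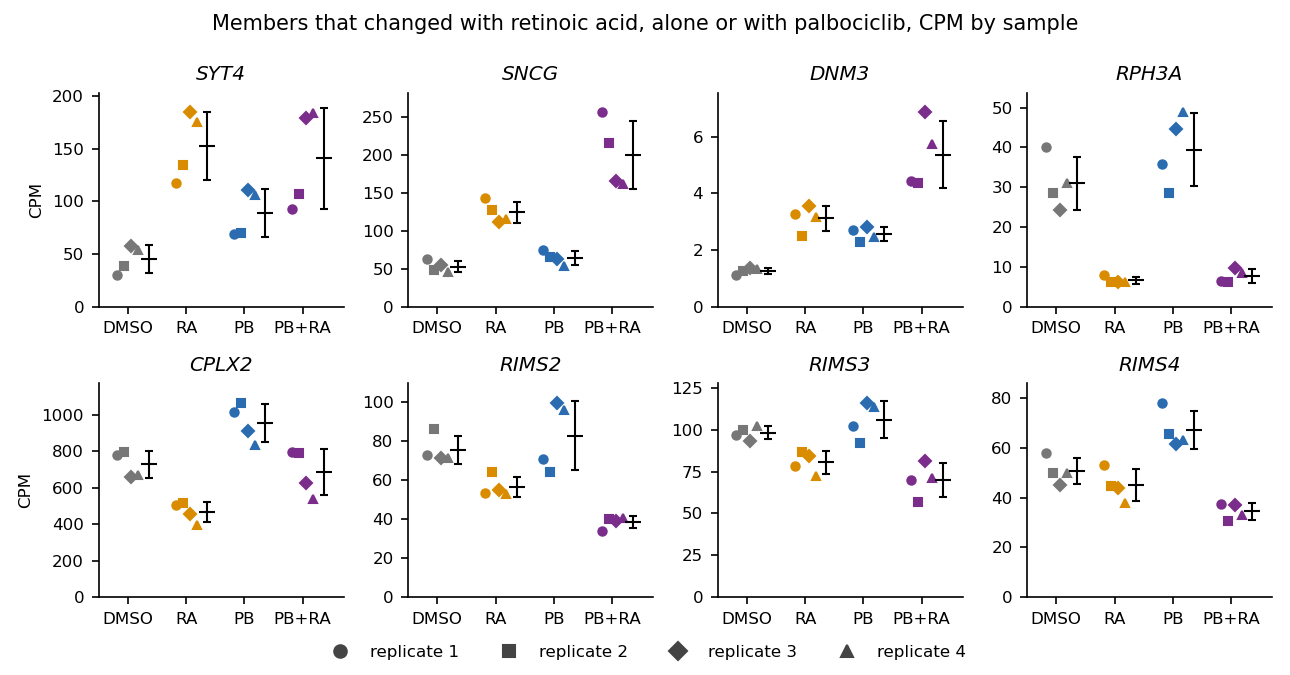
CPM by sample of 8 members that RA changed alone or on top of PB. Symbols are replicates, and the mark and bar are the mean ± SD of 4 libraries. RPH3A is at 6.08 to 9.62 CPM in every RA-treated library against 24.4 to 48.8 CPM in the others, and SNCG is highest in PB+RA. RIMS2, RIMS3 and RIMS4 have their lowest means in PB+RA, where RIMS3 overlaps RA and only RIMS2 was called below RA.

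At the active zone, 5 of 12 tested genes rose with PB and 7 with PB+RA, and 3 fell with PB+RA. RA alone called 0 in edgeR, and DESeq2 and limma-voom also called 0. In edgeR 2 genes had an unadjusted p under 0.05 with RA, both downward. These were RIMS2 (log2 -0.43, adjusted p = 0.0139) and RIMS3 (-0.29, adjusted p = 0.0237), which failed only on the size for a call. CADPS (CAPS1, chr3:62384021-62861091), which primes dense-core vesicles, had the largest rise with PB of any member with at least 5 CPM. It read 7.87, 3.95, 13.03 and 10.6 CPM under DMSO, 9.38, 7.197, 15.2 and 12.1 under RA, 61.3, 40.2, 87.1 and 79.4 under PB and 54.3, 35.3, 66.4 and 59.5 under PB+RA. PB raised it 7.51-fold (log2 2.91 ± 0.34, adjusted p = 5.48e-06) and PB+RA by 2.56 ± 0.34 (adjusted p = 9.76e-06), while RA overlapped DMSO (0.29 ± 0.35). Its paralogue CADPS2 had at most 3 counts in a library.

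UNC13A (Munc13-1), the priming factor that opens syntaxin, had the highest level of this class per kb (14.03 CPM per kb). It read 133, 128, 106 and 118 CPM under DMSO, 116, 139, 111 and 93.3 under RA, 237, 213, 183 and 177 under PB and 213, 197, 172 and 171 under PB+RA. PB raised it by 0.74 ± 0.12 (adjusted p = 7.16e-05) and PB+RA by 0.61 ± 0.12 (adjusted p = 0.000279), with RA at -0.08 ± 0.12. With GC and length correction the PB+RA value was 0.35, no longer called. UNC13B lay at 71.4 ± 2.11 CPM under DMSO, 98.7 ± 12.5 under PB and 105 ± 9.68 under PB+RA, where the log2 of 0.54 ± 0.09 (adjusted p = 3.68e-05) became 0.45 (adjusted p = 0.000353) without PB+RA replicate 1, 0.48 (adjusted p = 0.000319) without replicate 2 and 0.30 with GC and length correction. UNC13C was at 0 in all but 1 library, which held 1 count.

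Of the tested scaffold genes, BSN, PCLO and PPFIA3 rose with PB, and ERC1 and PPFIA4 were not called. BSN (bassoon) rose from 17.4 ± 1.37 to 34.6 ± 3.96 CPM with PB and 38.7 ± 7.06 with PB+RA. PCLO (piccolo) rose from 19.5 ± 0.846 to 30.6 ± 3.48 and 31.3 ± 6.799 CPM. Without PB+RA replicate 4 its PB+RA log2 of 0.65 was 0.49 (adjusted p = 0.000161), just below the size for a call, and with GC and length correction the PB log2 was 0.48 and the PB+RA log2 0.43, also below it. PPFIA3 (liprin-α3) rose from 40.7 ± 3.25 to 80.8 ± 14.1 CPM with PB, and lay at 72.2 ± 8.69 under PB+RA. ERC1 (ELKS1) was present at 52.5 ± 5.21 CPM under DMSO and 65.3 ± 11.2 under PB+RA, a log2 of 0.29 ± 0.11 (adjusted p = 0.0306), below the size for a call. PPFIA4 was low (2.801 ± 1.25 CPM under DMSO and 1.396 ± 0.912 under PB+RA) and was not called without the block. With it PB+RA stood at -1.01 (adjusted p = 0.000445) against DMSO, -0.73 (adjusted p = 0.0148) against PB and -0.71 (adjusted p = 0.0124) against RA. The difference from DMSO was called under 11 alternatives in all, DESeq2 and limma-voom among them. ERC2 and PPFIA2 had at most 9 and 3 counts.

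The RIM proteins, the organisers that link RAB3, calcium channels and UNC13, divided. RIMS2 read 72.7, 86.01, 71.3 and 71.5 CPM under DMSO, 53.4, 64.05, 54.97 and 52.8 under RA, 71.00, 64.2, 99.7 and 95.9 under PB and 34.03, 40.3, 39.1 and 40.7 under PB+RA. The PB+RA libraries lay below all others, at -0.997 ± 0.13 (adjusted p = 3.48e-06) against DMSO, -1.13 ± 0.13 (adjusted p = 5.02e-06) against PB and -0.57 ± 0.13 (adjusted p = 0.00126) against RA. The RA libraries also lay below all DMSO libraries, but neither agent alone was called, with RA at -0.43 ± 0.12 and PB at 0.14 ± 0.12. RA was called with GC and length correction, at -0.59, adjusted p = 0.00153, and without RA replicate 2, at -0.51, adjusted p = 0.00916.

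RIMS4 (chr20:43380449-43439187), a short RIM with the C-terminal C2 domain only, read 57.8, 49.8, 45.1 and 49.9 CPM under DMSO, 53.3, 44.8, 44.01 and 37.7 under RA, 78.3, 65.5, 61.5 and 63.1 under PB and 37.6, 30.5, 37.01 and 33.2 under PB+RA. PB libraries were above all DMSO libraries (log2 0.41 ± 0.11, adjusted p = 0.00384, below the size for a call). PB+RA libraries were below all others, at -0.58 ± 0.11 (adjusted p = 0.000159) against DMSO and -0.98 ± 0.11 (adjusted p = 3.19e-06) against PB. Against RA the difference was -0.40 (adjusted p = 0.00500), below the size for a call. The highest PB+RA library stood at 37.61 CPM and the lowest RA library at 37.66. Its exons overlap KCNK15 on the opposite strand over 9.35% of their length, a gene at 2.22 CPM. RIMS3, the other short RIM, read 97.2, 100.1, 93.3 and 102 CPM under DMSO, 78.2, 86.97, 84.6 and 72.2 under RA, 103, 92.2, 116 and 113 under PB and 70.01, 56.8, 81.4 and 71.4 under PB+RA, and its PB+RA level was -0.52 ± 0.10 (adjusted p = 0.000150) against DMSO and -0.63 ± 0.10 (adjusted p = 8.41e-05) against PB. Without PB+RA replicate 2 the first of these was -0.46 (adjusted p = 0.000215). All RA libraries of RIMS3 lay below all its DMSO libraries, at a log2 of -0.29 (adjusted p = 0.0237), below the size for a call. Its PB+RA libraries overlapped those of RA, and that difference was not called. RIMS1 was near the floor, at 0 to 0.190 CPM under DMSO and 0.266 to 0.974 under PB+RA, and was called higher in PB+RA against DMSO (2.81 ± 0.75, adjusted p = 0.00350) and RA (1.70 ± 0.67, adjusted p = 0.0409), the latter not without any of 7 of the 16 libraries, for example 1.60 (adjusted p = 0.0875) without RA replicate 1. With the block PB alone was called too, at 2.02 (adjusted p = 0.00473). RIMS1 would not have passed the filter on low counts without its PB+RA libraries. Its PB+RA rises, which the counts of rises above include, therefore depend on that filter.

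All 4 tested endocytosis genes were higher with PB and with PB+RA. SNAP91 (AP180), the neuronal clathrin assembly protein and the highest of the class per kb (8.78 CPM per kb), read 23.05, 23.4, 32.2 and 30.3 CPM under DMSO, 32.4, 30.00, 40.96 and 33.7 under RA, 94.7, 80.01, 94.3 and 91.6 under PB and 85.7, 66.1, 92.01 and 83.98 under PB+RA. PB raised it by 1.73 ± 0.13 (adjusted p = 2.08e-08) and PB+RA by 1.56 ± 0.13 (adjusted p = 1.9e-08), and RA gave 0.32 ± 0.13, not called. DNM3, a dynamin that cuts the vesicle neck, read 1.099, 1.26, 1.36 and 1.32 CPM under DMSO, 3.28, 2.51, 3.54 and 3.15 under RA, 2.703, 2.27, 2.804 and 2.44 under PB and 4.45, 4.38, 6.87 and 5.74 under PB+RA. It was low but moved with each agent, by 1.30 ± 0.17 (adjusted p = 3.31e-05) with RA and 1.02 ± 0.17 (adjusted p = 0.000118) with PB, and PB+RA was above either, at 1.04 ± 0.16 against PB and 0.76 ± 0.16 against RA.

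SYNJ1, a lipid phosphatase that takes part in clathrin uncoating, rose from 27.6 ± 1.97 to 43.2 ± 4.48 CPM with PB and 42.9 ± 4.83 with PB+RA. DNM1, the main neuronal dynamin, went from 62.6 ± 4.83 to 95.2 ± 7.81 and 93.6 ± 14.01 CPM. Its PB+RA call, a log2 of 0.55 ± 0.09, became 0.43 (adjusted p = 0.000360) without PB+RA replicate 1 and 0.47 (adjusted p = 0.000675) without DMSO replicate 2, and was also lost without PB+RA replicate 3. With GC and length correction it was 0.27, and the PB log2 of 0.60 was 0.43, neither then called. DNM1 shares 0.428% of its exon length with the more abundant CIZ1 on the opposite strand (199 against 81.5 CPM). AMPH had no more than 2 counts in a library.

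The synucleins, small proteins that associate with vesicles, moved in opposite directions. SNCG (γ-synuclein, chr10:88718356-88723015) read 62.6, 47.8, 55.00 and 45.4 CPM under DMSO, 143, 127, 112 and 116 under RA, 74.6, 65.8, 62.6 and 53.1 under PB and 256, 215, 166 and 162 under PB+RA. RA raised it without overlap by 1.23 ± 0.15 (adjusted p = 2.5e-05), PB gave 0.28 ± 0.15, not called, and PB+RA reached 1.89 ± 0.15 (adjusted p = 2.91e-08) against DMSO and 1.61 ± 0.15 (adjusted p = 1.24e-06) against PB. It was also above RA, by 0.66 ± 0.15 (adjusted p = 0.00140), which became 0.497, just under the size for a call, without PB+RA replicate 1. SNCB (β-synuclein) was low, read 1.91, 2.16, 1.52 and 2.59 CPM under DMSO, 1.76, 1.900, 1.09 and 1.04 under RA, 1.46, 0.629, 1.14 and 1.04 under PB and 0.914, 0.443, 1.01 and 1.13 under PB+RA, and fell with PB (-0.92 ± 0.29, adjusted p = 0.0134) and PB+RA (-1.25 ± 0.30, adjusted p = 0.00142). Its difference between PB+RA and RA, -0.75 ± 0.31 (adjusted p = 0.0475), was lost under 17 of 28 alternatives, for example -0.61 (adjusted p = 0.130) without RA replicate 2.

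Whether the combination equalled the sum of its parts was tested as an interaction, namely the combined log2 change less the changes with each agent alone. No member lay above the sum by a call in edgeR (0 of 49, 1 at an unadjusted p under 0.05, 1 in DESeq2 and 0 in limma-voom), where 0.415% of all genes did. Below it lay 3 members, beside 3.02% of all genes. These were RIMS4 at -0.80 ± 0.15 (adjusted p = 0.00522), RIMS2 at -0.70 ± 0.18 (adjusted p = 0.0288) and SYNGR1 at -0.50 ± 0.14 (adjusted p = 0.0493). SNAP25, at -0.496 (adjusted p = 0.00507), fell just short of the size for a call. It was called in replicates 1 and 2 only, and without DMSO replicate 2, RA replicate 1, PB replicate 4 or PB+RA replicate 2. For RIMS4 and RIMS2 every PB+RA library lay below those of either agent alone, and for SYNGR1 the combination overlapped PB. RIMS4 in PB+RA against RA was at -0.40, below the size for a call. RIMS4 kept its call under every one of the 27 alternatives run for it, while RIMS2 lost it under 15 of 27 and SYNGR1 under 21 of 27. Without PB replicate 3, for instance, RIMS2 was -0.56 (adjusted p = 0.0769), with GC and length correction it was -0.58 (adjusted p = 0.0725), and without DMSO replicate 3 SYNGR1 was -0.42 (adjusted p = 0.144).

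With the replicate block 11 members were below additive and 1 above, where 6.36% and 1.23% of all genes were called under the block. The additional ones were SYT4 at -1.16 (adjusted p = 2.82e-08), RAB3A at -0.73 (adjusted p = 0.000403), SYT5 at -0.66 (adjusted p = 0.00995), CADPS at -0.64 (adjusted p = 0.00132), DOC2B at -1.41 (adjusted p = 0.00105), SYT2 at -0.54 (adjusted p = 0.00886), SYT13 at -4.40 (adjusted p = 6.94e-05) and RAB3B at -0.96 (adjusted p = 0.00881). The member above was VAMP1, at 0.64 (adjusted p = 0.0106). The median interaction of the 49 tested members was -0.23 and that of all genes -0.04.

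**Figure D5:**
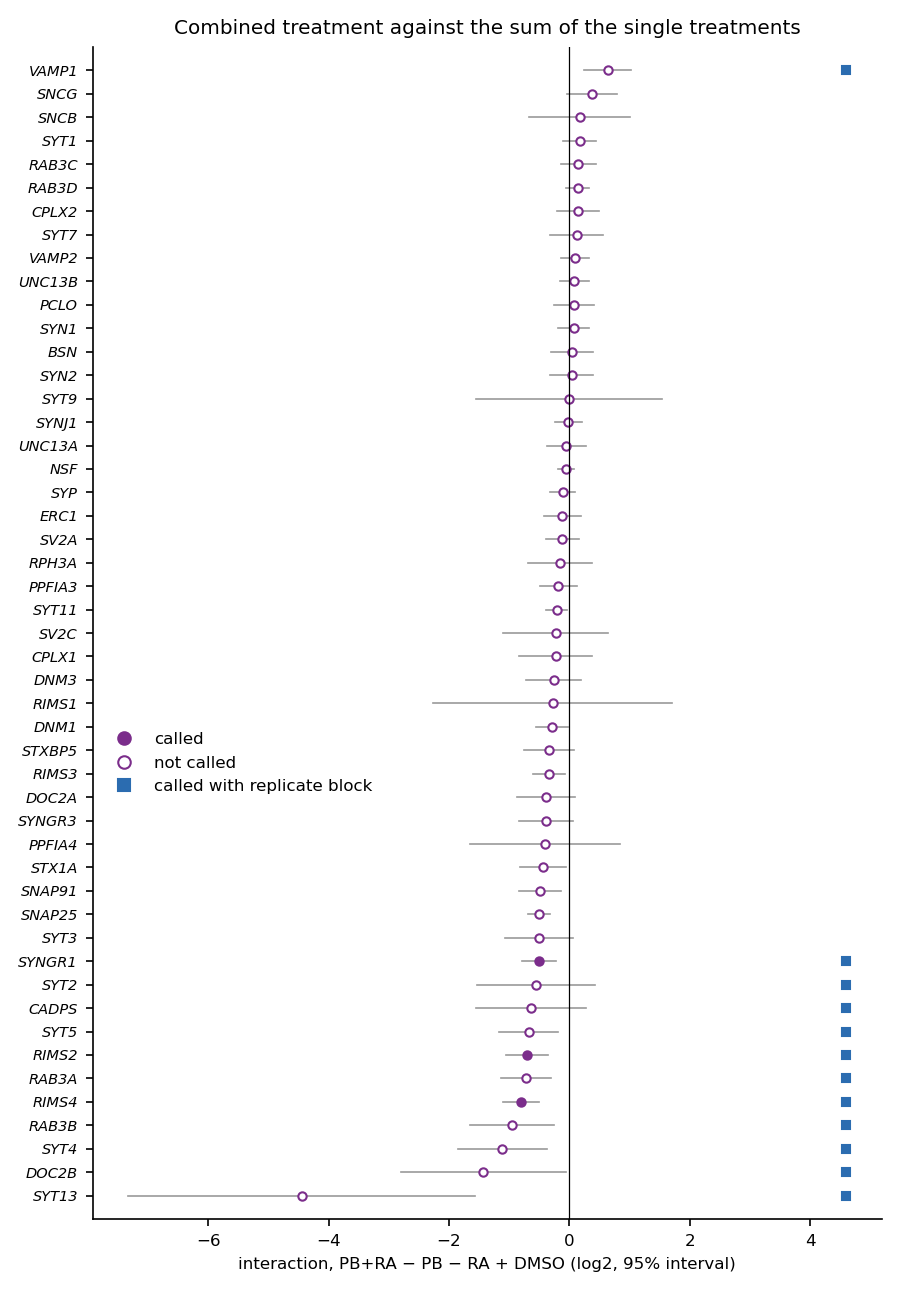
Interaction of PB and RA for the 49 tested members, as the log2 difference between the combined change and the sum of the single changes, with 95% intervals from edgeR. Filled points were called in the fit without a block (RIMS4 at -0.80, RIMS2 at -0.70 and SYNGR1 at -0.50), and blue squares at the right mark the 12 members called with the replicate number as a block.

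The same steps hold further genes that were not members, and 49 of 59 of these were tested. Of them 13 were higher and 2 lower with PB. RA gave 8 and 1, and the combination 19 and 6, beside the same background shares as above. Their median log2 fold change with PB was 0.21. The largest rises in PB+RA with at least 5 CPM were SYT17, from 3.199 to 39.1 CPM (log2 3.57), and STX3, a syntaxin of apical and ribbon release, from 1.69 to 10.8 CPM (2.65). RAB27A, a granule-docking RAB, fell from 21.9 to 8.45 CPM (-1.41) and PRRT2, a SNARE-binding membrane protein, from 37.1 to 15.7 CPM (-1.26).

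Promoters are shown for 5 members that moved in different ways and hold the same short motif. SYT4 and RPH3A were among the members with the largest changes, and SYN1, UNC13A and PCLO were picked for the motif. RefSeq windows from 250 bases before to 50 after the start site (GRCh38.p14) were matched for 46 of 57 members and searched on both strands for CACGTG (an E-box), TCAGCACC (a half-element bound by the neuronal repressor REST), TTTCCCGC or TTTGGCGC (E2F), TGACGTCA (CRE) and 2 AGGTCA half-sites spaced by 1, 2 or 5 bases. TCAGCACC or its complement stood in 8 member windows (17.4%) and in 1.70% of all 27305 windows. Of these 8 genes, SYN1, SYT3, UNC13A and PCLO were higher with PB but not, or not stably, with RA, SYT4 was higher with either agent, RPH3A fell with RA, SV2C was called nowhere in the fit without a block and SV2B was too low to test. In these 5 windows, written 5′ to 3′ on the strand of the gene, capitals mark this motif and, in SYN1 and UNC13A, also the CRE and the E-box.
SYN1 (chrX:47619808-47620107, minus strand): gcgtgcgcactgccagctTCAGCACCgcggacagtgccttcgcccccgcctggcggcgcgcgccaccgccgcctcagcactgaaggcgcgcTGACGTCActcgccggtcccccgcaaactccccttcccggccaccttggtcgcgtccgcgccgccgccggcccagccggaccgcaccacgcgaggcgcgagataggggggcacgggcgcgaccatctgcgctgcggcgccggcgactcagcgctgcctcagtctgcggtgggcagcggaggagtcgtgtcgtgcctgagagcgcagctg
SYT4 (chr18:43277441-43277740, minus strand): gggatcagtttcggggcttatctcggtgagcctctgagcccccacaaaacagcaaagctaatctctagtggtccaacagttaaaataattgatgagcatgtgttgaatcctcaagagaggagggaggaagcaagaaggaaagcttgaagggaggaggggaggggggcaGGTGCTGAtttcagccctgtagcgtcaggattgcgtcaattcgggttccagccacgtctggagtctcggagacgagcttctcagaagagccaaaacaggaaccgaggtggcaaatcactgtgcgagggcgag
RPH3A (chr12:112791498-112791797, plus strand): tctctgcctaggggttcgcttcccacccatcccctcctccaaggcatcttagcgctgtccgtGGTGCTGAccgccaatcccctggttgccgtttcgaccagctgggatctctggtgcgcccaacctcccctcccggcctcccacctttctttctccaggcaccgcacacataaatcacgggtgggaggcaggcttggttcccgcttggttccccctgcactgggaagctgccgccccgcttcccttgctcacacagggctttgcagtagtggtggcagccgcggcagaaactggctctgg
UNC13A (chr19:17688305-17688604, minus strand): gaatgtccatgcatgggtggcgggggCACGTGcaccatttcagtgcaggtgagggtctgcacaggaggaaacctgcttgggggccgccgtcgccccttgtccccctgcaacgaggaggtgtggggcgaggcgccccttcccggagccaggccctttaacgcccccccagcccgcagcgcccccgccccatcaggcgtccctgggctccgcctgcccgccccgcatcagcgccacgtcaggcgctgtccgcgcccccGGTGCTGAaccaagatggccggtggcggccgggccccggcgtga
PCLO (chr7:83162835-83163134, minus strand): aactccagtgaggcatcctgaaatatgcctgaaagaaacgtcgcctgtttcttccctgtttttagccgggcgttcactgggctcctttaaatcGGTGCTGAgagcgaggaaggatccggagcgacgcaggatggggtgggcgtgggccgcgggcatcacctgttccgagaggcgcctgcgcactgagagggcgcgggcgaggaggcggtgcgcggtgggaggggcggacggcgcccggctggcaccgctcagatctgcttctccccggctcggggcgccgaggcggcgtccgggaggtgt

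The motif begins 232 bases before the start site in SYN1, 82 before in SYT4, 188 before in RPH3A, 157 before in PCLO and 6 bases after it in UNC13A. The E-box was in 2 member windows (4.35%) against 7.43% of all, the E2F letters in 1 (2.17%) against 2.31%, and the CRE in 1 against 1.98%. The spaced AGGTCA repeats were in 0 of 46 member windows and in at most 6 of all 27305 for any spacing. A match says only that these letters stand in the window, and binding was not measured here.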

How the data were processed

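RNA-seq of 16 SK-N-BE(2)C samples was used, 4 per group, with groups from the labels. Per the study's methods and processing notes, the authors trimmed reads (Trim Galore 0.6.4), aligned them to hg19 with STAR 2.6.1d and deposited raw counts per gene symbol. The authors also deposited CPM values, which scale each library by its total count. The annotation release and strand column are not given in the sources used here. A further table held the authors' DESeq2 comparisons (fold changes and p-values) and was not used.

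Here the counts were filtered (filterByExpr, leaving 15415 of 27037 genes), TMM-normalized and fitted over all 16 samples with edgeR 4.0.16 (R 4.3.3) by the quasi-likelihood test, two-sided, with Benjamini-Hochberg adjustment over all tested genes. Every adjusted p given is from this fit, and with the block or without a library from the same test. SE was the absolute log2 fold change over the root of F, and 95% intervals are 1.96 SE to each side. Levels are the deposited CPM, and per kb uses exon lengths of GENCODE v44 lifted to GRCh37. The floor is 3 counts, for counting error only. The script was tested on simulated data. Alternatives were DESeq2 1.42.0, limma-voom 3.58.1, other scaling and filters, no fold minimum, a replicate block, the 2 groups alone, replicates 1 and 2 or 3 and 4 alone, GC and length correction and each library left out. The block together with that correction was added after the data were seen.

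The replicates came from different passages per the study's general statement. Same-numbered samples deviated together (24 pairs, r 0.330 to 0.573), and the replicate block was set by number. Such correlations were computed for same-numbered samples only. They cannot tell pairing by number from the sets of alike libraries described above, which recur in every group. Pairing by number is therefore an assumption of the block. Members and lists were chosen with earlier results of these data known. Values in full were given by a rule for the 3 largest called rises and falls per comparison with at least 5 CPM, members called in the interaction, and the highest per kb in each class. SNAP25, STX1A, SYT1, DNM3, RIMS3, SYT2, SYT9, SYT13 and SNCB were chosen after their values were seen. That rule also covered promoters of the named members, of which SYT4 and RPH3A are printed, and 3 others were added. The summed Schwann and glial markers are not reported here. Proteins were not analysed here. Promoters are from RefSeq, GRCh38.p14.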

Additional observations from a re-analysis of the deposited data

Results flagged for a closer look

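In groups of 4 libraries, a library was singled out where its gap to the nearest other exceeded Dixon's 95% critical share of the group's range. Among 160 groups of 40 members with at least 5 CPM this held for 6, and chance gives about 1 in 20. STX1A was at 78.9 CPM in RA replicate 2, with the next library at 59.5. DOC2A was at 23.8 CPM in the same library, with the next at 17.0. RAB3D was at 17.1 CPM in PB replicate 2, the lowest of its group, with the next at 20.1. RPH3A was at 7.95 CPM in RA replicate 1, with the next at 6.25. RIMS2 was at 86.0 CPM in DMSO replicate 2, with the next at 72.7. PCLO was at 41.4 CPM in PB+RA replicate 4, with the next at 28.8.

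The effect of RA was called different with and without PB, by the edgeR interaction test, for SYNGR1 (log2 -0.50, adjusted p = 0.0493), RIMS2 (-0.70, adjusted p = 0.0288) and RIMS4 (-0.80, adjusted p = 0.00522). SYNGR1 lost this call under 21 of 27 alternatives and RIMS2 under 15 of 27, while RIMS4 kept it under every one.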

How the results depend on the processing

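Of 126 calls of a member in a comparison, 92 held under every alternative and 34 were lost under at least 1, and no call changed sign. Members lower with PB went from 2 to 1 in replicates 1 and 2 only and to 1 in replicates 3 and 4 only. Members lower with RA went from 2 to 5 with no fold minimum and to 4 with GC and length correction, with or without the block. Members higher in PB+RA than in PB went from 3 to 5 with no fold minimum, in replicates 1 and 2 only and in replicates 3 and 4 only, and ranged from 2 (without PB replicate 2) to 5 (without PB replicate 3) with a library left out. Members lower in PB+RA than in RA went from 2 to 1 in DESeq2, limma-voom, the stricter filter, no filter, the 2 groups alone and replicates 3 and 4 only, to 4 in replicates 1 and 2 only, and from 1 to 3 with a library left out (1 without DMSO replicate 1, 3 without PB+RA replicate 4). Members above additive went from 0 to 1 in DESeq2 and with GC and length correction. Members below additive went from 3 to 1 with no filter, to 6 in replicates 1 and 2 only and to 6 in replicates 3 and 4 only, and ranged from 1 (without DMSO replicate 1) to 4 (without DMSO replicate 2). The share of all genes called was not counted under these alternatives, so the shifts cannot be read as particular to the members. The median log2 fold change of tested members, PB+RA against PB, was 0.01 and became -0.000539 in limma-voom, -0.00149 in replicates 1 and 2 only and -0.0445 with GC and length correction. With GC and length correction the median of all genes in RA against DMSO moved from 0.01 to -0.10. It moved from 0.03 to -0.04 in PB against DMSO and from 0.04 to -0.07 in PB+RA against DMSO. In PB+RA against PB it went from -0.014 to -0.044, near the members' median there, and in PB+RA against RA from 0.003 to 0.008. Depth limits the genes under 1 CPM. The causes were not tested.

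With the replicate block, members higher in PB+RA than in PB numbered 5, those lower in PB+RA than in RA 4, those above additive 1 and those below additive 11. With the block and GC and length correction these were 4 lower with RA, 4 lower in PB+RA than in RA, 1 above and 8 below additive, and the median log2 fold change of tested members, PB+RA against PB, was -0.0488. For the block together with that correction the share of all genes was not counted. The block's other gains are given with each gene, and it changed no other call.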
